A study of Caenorhabditis elegans with 2 samples.

Results

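The 15363 genes that the RefSeq annotation of the WBcel235 assembly (the same as ce11) classes as piRNA genes were examined for binding of RNA polymerase III in Caenorhabditis elegans. They make up 15363 of the 46926 annotated genes, and each is 21 bp long. A gene and 250 bp on each side formed a region of 521 bp, and it was asked whether the summit of an RPC-1 peak, the base of highest enrichment, lay in that region. The members were defined from the annotation alone and by no measured value, although the choice was made with earlier results of these data known. RPC-1, the biggest of the subunits of RNA polymerase III, had been profiled by ChIP-seq, in which DNA bound to a protein is precipitated and sequenced. There was 1 group of 2 samples, labelled biological replicates 1 and 3: young adult hermaphrodites of strain JK1107, genotype glp-1(q224) III, that stably carried RPC-1 with a GFP-FLAG tag at its C terminus and were precipitated with an antibody against GFP.

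Several features limit this group as a model. The samples share 1 transgenic line and came from whole animals, so cell types are mixed. The allele glp-1(q224) is temperature sensitive, and at the restrictive temperature animals form almost no germ cells. The labels do not give the growth temperature, and peak lists hold no marker expression from which germline content could be checked. There was no group with a full germline to compare with. The replicates also differed in how chromatin was sheared (Bioruptor for replicate 1, microtip for replicate 3), and shearing and replicate cannot be told apart. Read depth is unknown, and no interval below covers it.

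Piwi-interacting RNAs of C. elegans, also called 21U-RNAs, are small RNAs of the germline that bind the Piwi protein PRG-1 and silence foreign and self transcripts. Most come from very short genes that each have their own promoter, with the core motif CTGTTTCA upstream of the 5′ end, and are transcribed by RNA polymerase II. They lie in broad clusters on chromosome IV, between and within protein-coding genes. RNA polymerase III makes tRNAs, 5S rRNA, U6 snRNA and a few other small RNAs, and at tRNA genes it is recruited through an A-box and a B-box inside the transcribed sequence.

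Sequences of piRNA genes and of RPC-1 summits near them are printed first, since the results turn on which promoter features each holds. The first set gives 60 bases upstream of a piRNA gene followed by its 21 bases, on the strand of the gene, with CTGTTTCA in capitals where it occurs (21ur-5344 and 21ur-6325). They are the piRNA genes at the strongest tRNA summit (21ur-5344), at the strongest summit with no other RNA gene (21ur-602), at a weaker one of that kind (21ur-6325) and nearest to any summit (21ur-5). All sequences are from the RefSeq WBcel235 assembly. The genes lie at chrIV:14576908-14576928 (minus strand), chrIV:15433766-15433786 (plus), chrIV:15729623-15729643 (plus) and chrIV:16170410-16170430 (plus).
21ur-5344: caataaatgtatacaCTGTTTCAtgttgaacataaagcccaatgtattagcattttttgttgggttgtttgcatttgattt
21ur-602: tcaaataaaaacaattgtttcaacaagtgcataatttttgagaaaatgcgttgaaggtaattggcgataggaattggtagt
21ur-6325: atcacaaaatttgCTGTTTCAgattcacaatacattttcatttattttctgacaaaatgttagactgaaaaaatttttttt
21ur-5: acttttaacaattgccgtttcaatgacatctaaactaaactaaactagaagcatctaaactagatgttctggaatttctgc

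The second set gives 121 bases centred on 5 IDR summits near piRNA genes, on the strand that carries the B-box. Capitals mark the B-box, searched on both strands as GGTTCGA followed after 2 bases by CC with at most 1 mismatch. Where present, an exact A-box (searched by its general consensus) 25 to 110 bases before it, from start to start, is also in capitals. By this search the 21ur-6325 window has none. The search found an A-box at only 3 of the 16 summits at tRNA genes near piRNA genes, so a window without a hit may still hold one. Windows are named by the nearest piRNA gene. The first is the tRNA-Lys gene B0350.t1 (chrIV:5967110-5967230, plus strand), shown as a known RNA polymerase III gene. The next is the unclassified ncRNA site (chrIV:14875317-14875437, plus). The others have no other RNA gene within 250 bp: chrIV:15433921-15434041, chrIV:15729692-15729812 and chrX:13990678-13990798, all on the minus strand.
21ur-5229 window: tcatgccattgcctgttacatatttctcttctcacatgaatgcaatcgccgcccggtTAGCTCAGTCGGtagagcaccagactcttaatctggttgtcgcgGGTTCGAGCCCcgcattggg
21ur-6987 window: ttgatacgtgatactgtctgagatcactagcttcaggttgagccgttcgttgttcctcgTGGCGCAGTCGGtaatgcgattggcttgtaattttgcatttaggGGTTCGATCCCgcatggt
21ur-602 window: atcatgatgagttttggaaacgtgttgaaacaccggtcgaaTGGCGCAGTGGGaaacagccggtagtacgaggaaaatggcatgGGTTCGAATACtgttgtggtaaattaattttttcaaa
21ur-6325 window: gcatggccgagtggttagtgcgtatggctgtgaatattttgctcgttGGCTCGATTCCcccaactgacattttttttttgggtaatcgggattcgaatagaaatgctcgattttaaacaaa
21ur-14064 window: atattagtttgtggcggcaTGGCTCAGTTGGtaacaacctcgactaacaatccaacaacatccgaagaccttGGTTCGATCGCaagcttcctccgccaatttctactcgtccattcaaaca

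By position, 14714 piRNA genes lay on chromosome IV, 202 on V, 162 on X, 109 on II, 98 on I and 78 on III. Bins of 100 kb with at least 20 piRNA genes formed 2 clusters on chromosome IV. Cluster 1, from 4800001 to 7000000, held 2807 genes (18.3%), or 127.6 per 100 kb, with a median gap of 313 bp between neighbours. Cluster 2, from 13500001 to 17300000, held 11534 genes (75.1%), or 303.5 per 100 kb, with a median gap of 145 bp. The 521 bp regions covered 39.1% of cluster 1 and 61.3% of cluster 2. A further 373 genes were scattered over chromosome IV outside the clusters, and 649 lay on other chromosomes.

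Few piRNA genes had an RPC-1 summit of the IDR list nearby. The IDR list holds 1860 peaks and is named for a threshold on how well peak ranks repeat between replicates. Of its nuclear summits 27 were at piRNA genes and 1813 away from them. The same numbers were among the 1860 strongest peaks called on both samples together. A single IDR peak therefore need not repeat in each replicate. It placed a summit in the regions of 35 of the 15363 piRNA genes (0.228%; 95% Clopper-Pearson interval 0.159 to 0.317%). The same was true of 0.945% of 521 bp windows tiled over the nuclear genome and of 5.16% of all nuclear genes with 250 bp on each side; most of the other genes are longer and offer more sequence. The interval treats genes as independent, which neighbouring piRNA genes are not, since they share flanking sequence and summits. When piRNA genes within 1000 bp were merged, 30 of 1800 loci (1.67%) held an IDR summit. Of these loci 1055 were single genes and the others span more sequence, so this share does not compare with that of the windows.

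Along the genome, 28 of the 14341 cluster genes (0.195%) had an IDR summit. Cluster 1 contributed 2 (0.0713%; interval 0.00863 to 0.257%) and cluster 2 contributed 26 (0.225%; interval 0.147 to 0.33%), and these intervals overlap. On chromosome IV outside the clusters it was 1 of 373 (0.268%). On the other chromosomes it was 6 of 649 (0.924%; interval 0.34 to 2%), close to the 0.945% of windows. Of these 6 genes, 2 were on I, 2 on X and 1 each on II and V. None of the 78 on III had one, which allows a share of up to 4.62%.

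The pooled list, which is relaxed and holds 30000 peaks called on both samples together, gave the same order of places except between the clusters. A pooled summit lay in the regions of 363 piRNA genes (2.36%), against 15.1% of windows and 30.7% of all nuclear genes. The share was 4.06% in cluster 1 (114 genes), 1.17% in cluster 2 (135 genes), 6.7% on chromosome IV outside the clusters (25 genes) and 13.7% on other chromosomes (89 genes; interval 11.2 to 16.6%). The intervals of cluster 1, 3.36 to 4.86%, and cluster 2, 0.982 to 1.38%, did not overlap, with cluster 1 higher, whereas in the IDR list cluster 2 had the higher share. In the lists of the single samples, 410 piRNA genes (2.67%) had a summit in replicate 1 and 766 (4.99%) in replicate 3, and 110 had one in both. The shares by place moved with the list. In replicate 3 alone they were 7.37% in cluster 1, 3.43% in cluster 2, 13.1% on chromosome IV outside the clusters and 17.6% on other chromosomes, the first 3 over 1.5 times the pooled shares. In replicate 1 alone they were 3.99, 1.67, 7.77 and 11.7%, in the same order of places. The intervals above therefore do not cover the difference between the lists.

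No IDR summit fell inside a piRNA gene. The nearest was 18 bp from 21ur-5, and 1 gene had a summit within 50 bp and 8 within 100 bp. The count was 97 within 500 bp and 264 within 1000 bp. Members just inside the limit of 250 bp were 21ur-11336 and 21ur-2860, both at 241 bp, and the nearest outside it were 21ur-12485 at 256 bp and 21ur-773 at 265 bp. The pooled list had summits inside 12 piRNA genes. The strongest, in 21ur-10289 in an intron of nhr-46 in cluster 1, had a signal of 18.7 and ranked 10241 of 30000, and its −log10 q-value was 1.975. Next came 21ur-14570 (signal 17.88), 21ur-13973 (16.45), 21ur-13314 (14.51) and 21ur-14825 (13.97). The summit at 10.74 lay in both 21ur-13654 and 21ur-14146, which overlap, and 21ur-3089, 21ur-12634 and 21ur-15173 followed with 10.68, 10.25 and 9.994.

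The summits that were near piRNA genes lay mostly at tRNA genes. The 35 piRNA genes shared 27 IDR summits, 20 of them in the clusters. Of these 27, 16 (59.3%) were at a tRNA gene, with the summit inside the tRNA gene in 14 cases. A further 1 each lay at a U6 snRNA gene, a snoRNA gene and an unclassified ncRNA gene, and 8 (29.6%) had no other RNA gene within 250 bp. Of the 1813 nuclear IDR summits away from piRNA genes, 484 (26.7%) were at a tRNA gene and 1009 (55.7%) had no RNA gene within 250 bp. The signal, the authors' enrichment value for a peak, had a median of 2584 at the tRNA summits (57.48 to 6275) and of 84.59 at the 8 summits with no other RNA gene (57.03 to 3250). The plot of signal by summit shows 2 separated groups.

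**Figure D1:**
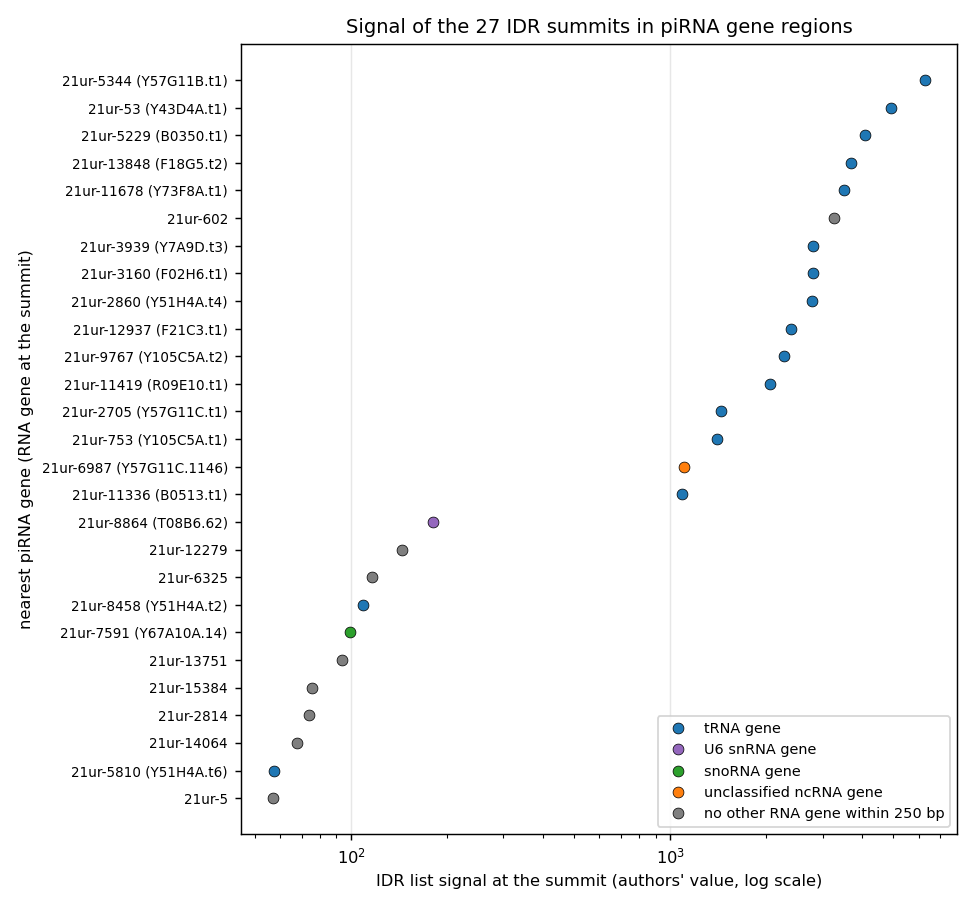
Signal of the 27 IDR summits within 250 bp of a piRNA gene, on a log scale, strongest at the top; each point is 1 summit, coloured by the class of the other RNA gene there. Of the 16 summits with signals from 1089 to 6275, 14 are at tRNA genes, 1 is at the unclassified ncRNA gene and 1, near 21ur-602, has no other RNA gene; the other 11 lie at or below 181.1.

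The strongest summit near a piRNA gene was in Y57G11B.t1, a tRNA-Gly gene in cluster 2 (IV, 14576622 to 14576693, minus strand), 224 bp from 21ur-5344. Its signal was 6275 in the IDR list (rank 54), 5098 in replicate 1 (rank 57) and 1194 in replicate 3 (rank 54). Signals of different lists are on different scales, so only the ranks compare, and these were close. A second tRNA-Gly gene in the same cluster, Y43D4A.t1 (IV, 16775182 to 16775253), had 4911 and ranked 121 in the IDR list, 124 in replicate 1 and 108 in replicate 3; its neighbour 21ur-53 lay 227 bp from the summit. In cluster 1 the tRNA-Lys gene B0350.t1 had 4085, 61 bp from 21ur-5229, with ranks of 195 and 241 in replicates 1 and 3.

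Other tRNA summits followed the same pattern. The summit of the tRNA-Val gene Y73F8A.t1, with a signal of 3506, was shared by 3 piRNA genes: 21ur-11678 at 111 bp, 21ur-1058 at 148 bp and 21ur-12952 at 201 bp. Another tRNA-Val gene, Y7A9D.t3, had 2805, with 21ur-3939 at 168 bp. The tRNA-Pro gene F02H6.t1 had 2793 and was shared by 21ur-3160 and 21ur-5470, at 123 and 148 bp. The tRNA-Gly gene Y51H4A.t4 had 2784 near 21ur-2860, and the tRNA-Ala gene Y105C5A.t2 had 2272 near 21ur-9767. The tRNA-His genes Y57G11C.t1 and B0513.t1 had 1444 near 21ur-2705 and 1089 near 21ur-11336, and the tRNA-Lys gene Y105C5A.t1 had 1406 near 21ur-753. Outside the clusters, F18G5.t2 (tRNA-Ala, in an intron of lgc-4 on X) had 3673 near 21ur-13848, F21C3.t1 (tRNA-Lys, in an intron of F21C3.7) had 2384 near 21ur-12937, and R09E10.t1 (tRNA-Gln, in an intron of acs-18 on IV) had 2056 near 21ur-11419. All of these summits lay inside the tRNA gene and ranked 703 or better in both replicates. At some of them, among them that of B0350.t1, an annotated ncRNA gene also overlapped the summit.

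The 2 remaining tRNA summits were weak and lay outside the gene. Y51H4A.t2 and Y51H4A.t6 are tRNA-Ser genes of identical 82 bp sequence in cluster 2. Their summits had signals of 108.7, 40 bp outside the gene and 62 bp from 21ur-8458, and 57.48, 25 bp outside and 92 bp from 21ur-5810. Each also lay near a second piRNA gene shifted by 1 bp, 21ur-5657 at 63 bp and 21ur-13773 at 93 bp. Copies matter for the other genes too: leaving out 2 bases at each end, 3 of the 16 tRNA genes at these summits (Y51H4A.t4, F21C3.t1 and B0513.t1) had a sequence found in no other nuclear tRNA gene. The others had sequences present in 2 to 30 nuclear tRNA genes, themselves included, and the highest number was that of the tRNA-Gly genes Y57G11B.t1 and Y43D4A.t1. How reads that match several places were treated is not given in the sources used here, and their part in the signals was not tested.

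The plot of distances shows how far each summit lay from both kinds of gene. For each of the 14 strong tRNA summits the tRNA gene contained the summit, while the nearest piRNA gene was 61 to 241 bp away. The U6 summit was inside T08B6.62, an snRNA gene with the conserved U6 core in an intron of str-166 in cluster 1, with a signal of 181.1, 112 bp from 21ur-8864. At the snoRNA gene Y67A10A.14 the summit, with a signal of 98.94, was 43 bp outside the gene, 229 bp from 21ur-7591 and 232 bp from 21ur-10179.

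**Figure D2:**
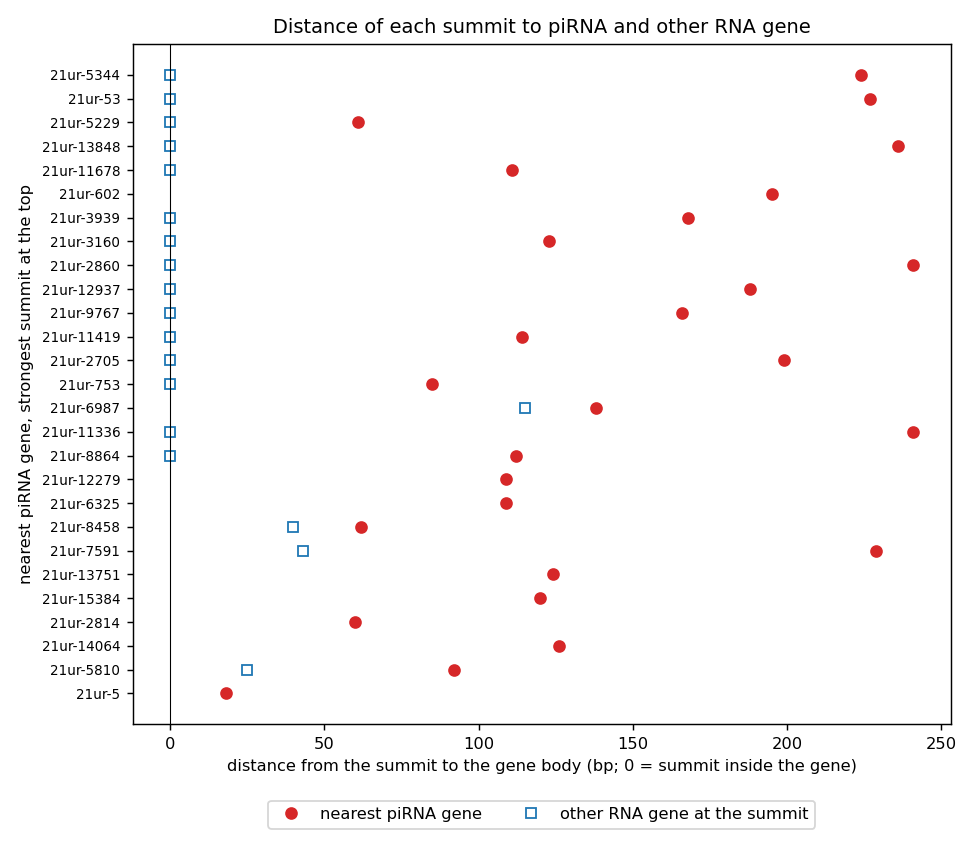
Distance in bp from each of the 27 IDR summits to the nearest piRNA gene (filled circles) and to the other RNA gene at the summit (open squares; 0 means that the summit is inside the gene), strongest summit at the top. No circle is at 0 and the lowest is 18 bp, while 15 squares are at 0; 8 summits have no square.

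Most piRNA genes with an IDR summit had a tRNA gene as neighbour. A tRNA gene lay within 250 bp of 26 piRNA genes, and 21 of these 26 (80.8%; interval 60.6 to 93.4%) had an IDR summit in their region, including 18 of 20 in the clusters. Of 15 piRNA genes beside another RNA polymerase III gene, a tRNA pseudogene or a snoRNA gene, 1 had a summit, and of 369 beside any other RNA gene 0 had one, which allows a share of up to 0.995%. Of the 14953 piRNA genes with no other RNA gene within 250 bp, 13 had an IDR summit (0.0869%; interval 0.0463 to 0.149%). In the pooled list the last share was 2.16% (323 genes), against 15.1% of windows. Distances in these counts run from the piRNA gene, not from the summit. The 13 genes therefore include 21ur-6987, 21ur-7591 and 21ur-10179, which have an ncRNA or snoRNA gene within 250 bp of their summit.

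The tRNA genes themselves were bound whether or not a piRNA gene was beside them. In the clusters all 13 tRNA genes with a piRNA gene within 250 bp had an IDR summit, with a median signal of 2784, as had 27 of the 28 without one, with a median of 2631. On chromosomes other than IV, 4 of 5 tRNA genes beside a piRNA gene were bound, and 494 of 536 without one. Within the clusters, 20 of the 97 IDR summits (20.6%) lay in piRNA regions and 77 away from them. Of the 20, 13 (65%) were at tRNA genes, against 25 of the 77 (32.5%).

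The 8 summits with no other RNA gene included 1 that was as strong as those of tRNA genes. Its summit lay at IV 15433981, in intergenic sequence of cluster 2, 195 bp from 21ur-602. Its signal was 3250 (rank 300), with ranks of 306 in replicate 1 and 285 in replicate 3. The window printed above holds an A-box and then a B-box with 1 mismatch, with 43 bases from start to start. A blastn search of wider windows around the 27 summits against the nuclear tRNA genes matched all 16 at tRNA genes and none of the other 11. This sequence is therefore not a copy of an annotated tRNA gene at the E-value limit of 0.01.

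The other 7 were weak. They were the summits near 21ur-12279 (signal 144.9, chromosome I), 21ur-6325 (116.7), 21ur-13751 (93.77, chromosome II), 21ur-15384 (75.41, chromosome V), 21ur-2814 (73.96, shared with 21ur-14607 and 21ur-3677), 21ur-14064 (67.52, in a coding exon of C31E10.11 on X) and 21ur-5 (57.03, in a coding exon of gln-3). For 2 of them the replicates differed: replicate 3 had no summit within 250 bp of the one near 21ur-15384, and ranked the one near 21ur-2814 at 18929 of 30000, against 1225 and 1291 in replicate 1. The lowest signal in the IDR list was 54.3, so 21ur-5, the piRNA gene nearest to any IDR summit, was beside one of its weakest peaks. Below the IDR list, the next pooled summits with no other RNA gene had signals of 51.05 near 21ur-15523 and 50.61 near 21ur-13200.

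Sequence features of tRNA promoters occurred mainly at the summits that lay at tRNA genes, and seldom at the other piRNA genes. An exact B-box was present within 250 bp of 12 of the 27 summits (44.4%), and with at most 1 mismatch of 19. Of these, 11 and 15 were among the 16 tRNA summits, where the tRNA gene itself is a source of B-boxes. At the 1813 nuclear IDR summits away from piRNA genes the shares were 25.1% and 40%. Among all piRNA regions an exact B-box was present in 19 of 15363 (0.124%), against 0.761% of windows, and one with at most 1 mismatch in 2.21%, against 4.6% of windows. Of the 8 summits with no other RNA gene, none had an exact B-box and 3 had one with 1 mismatch: those near 21ur-602, 21ur-6325 and 21ur-14064. The unclassified ncRNA site near 21ur-6987, with a signal of 1102, had an exact B-box 43 bp from the summit, whereas the annotated ncRNA gene itself ended 115 bp from it.

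A further search was for an exact A-box with a B-box 25 to 110 bases later, from start to start. This combination was searched after the summit sequences had been seen, so it describes them and supports nothing. It was present in 6 of the 35 piRNA regions with an IDR summit (17.1%) and in 0 of the 15328 without one, against 0.289% of windows. At the 16 tRNA summits it was found in only 3 (18.8%), so the search misses most of these tRNA genes and a missing hit shows little. The 6 were those of 21ur-5229, 21ur-753 and 21ur-12937, each beside a tRNA-Lys gene, and of 21ur-6987, 21ur-602 and 21ur-14064. The spacing between the starts of the boxes was 44 bases at the 3 tRNA-Lys genes and at 21ur-6987, 43 at 21ur-602 and 53 at 21ur-14064.

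Over all piRNA genes the shares with an RPC-1 summit were close with and without their own promoter motif. Within the clusters the pooled share was higher with the motif. CTGTTTCA was found on the same strand within 60 bases upstream of 5149 piRNA genes (33.5%), with its first base at a median of 46 bases upstream. It was upstream of 35% of cluster genes and 12.9% of genes outside the clusters, against 0.346% of protein-coding genes and 0.163% of tRNA genes. Of the genes with the motif 0.233% had an IDR summit, and of those without it 0.225%. The pooled shares were 2.43% with and 2.33% without the motif. These mix places, since 5017 of the 5149 genes with the motif were in the clusters. Within the clusters the pooled shares were 2.21% and 1.48%, and outside them 10.6% and 11.2%. Cluster shares were 2.53% and 1.91% in replicate 1, and 4.7% and 3.94% in replicate 3. Of the cluster genes with a pooled summit 44.6% had the motif, against 35% of all cluster genes. Of the 35 genes with an IDR summit 12 (34.3%) had the motif, close to the share of all piRNA genes.

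Around the 5′ ends of piRNA genes in the clusters, summits were sparser near the gene than further away. In the clusters, IDR summits occurred at 3.603 per Mb of sequence within 300 bp of a 5′ end and at 12.24 per Mb between 300 and 2000 bp, counting a summit for every gene it was near. The pooled list gave 33.94 and 59.09 per Mb. Outside the clusters the pooled densities were 238.1 and 277.7 per Mb, a smaller difference. The IDR densities there were 13.05 and 14.96 per Mb, with only 8 pairs of gene and summit within 300 bp. At tRNA genes the order was the reverse, with 1623 IDR summits per Mb within 300 bp and 168.2 per Mb beyond.

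**Figure D3:**
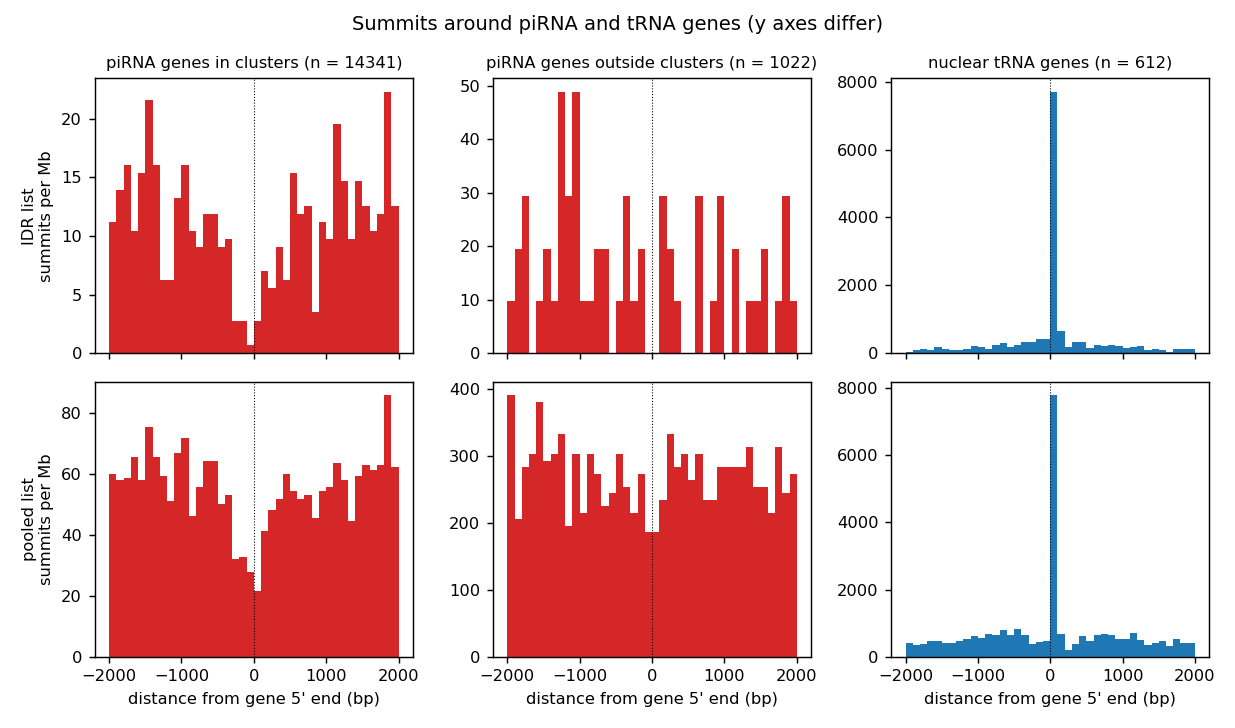
Summits per Mb in 100 bp bins up to 2000 bp on either side of the 5′ end, for piRNA genes in and outside the clusters and for nuclear tRNA genes (columns), in the IDR list (top) and the pooled list (bottom); each panel has its own y axis, and a summit counts for every gene it is near. Cluster piRNA genes show a dip at the 5′ end in both lists, while tRNA genes show a single peak just downstream of it.

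The clusters as wholes were not poor in reproducible summits. They held 97 IDR summits, or 16.17 per Mb (10.45 in cluster 1 and 19.47 in cluster 2). The density was 14.27 per Mb on the rest of chromosome IV, 16.23 on the other autosomes and 29.52 on X. Over the nuclear genome it was 18.35 per Mb. In the pooled list the clusters had 137.8 per Mb (189.1 in cluster 1 and 108.2 in cluster 2), against 296.8 on the rest of chromosome IV, 303.6 on the other autosomes and 338 on X. Across the 60 bins of 100 kb in the clusters, the number of piRNA genes had a Spearman's rho of -0.52 with pooled summits and of 0.19 with IDR summits. It also had a rho of 0.27 with tRNA genes. These 60 bins held 41 tRNA genes, against 30 in the 114 bins of chromosome IV outside the clusters. The part of tRNA genes in the IDR densities was not tested. Bins share libraries and differ in base composition, and the values are descriptions without a test.

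**Figure D4:**
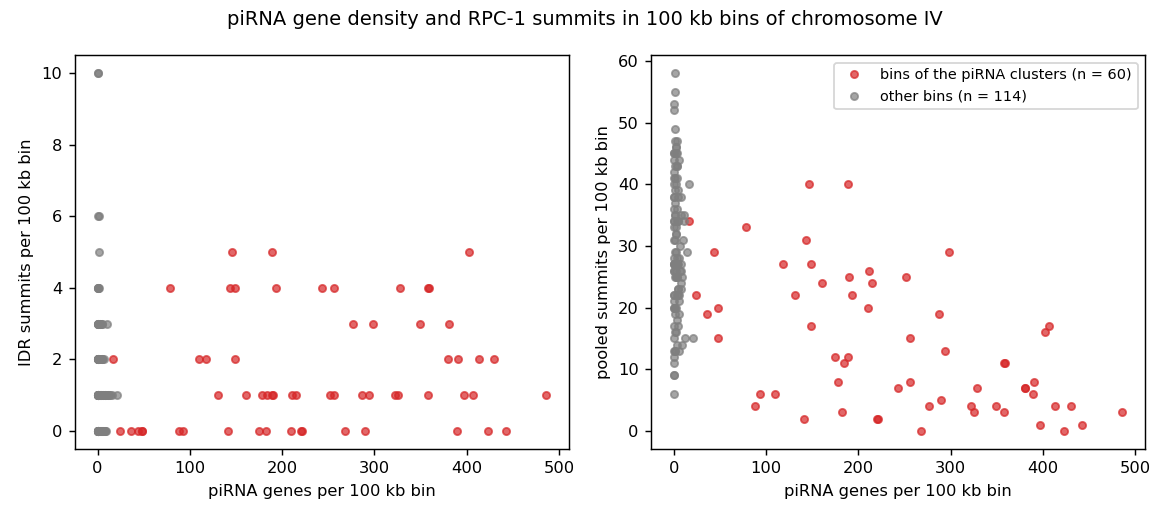
Number of piRNA genes and of RPC-1 summits in 100 kb bins of chromosome IV, for IDR summits (left) and pooled summits (right); each point is 1 bin, in the clusters (red, n = 60) or outside them (grey, n = 114). The median bin had 11 pooled summits in the clusters and 28 outside, while the median for IDR summits was 1 in both.

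Within the clusters the sequence at piRNA genes differed from the sequence between them. The piRNA regions covered 3.19 Mb and held 20 IDR summits, or 6.269 per Mb, against 27.4 per Mb in the other 2.81 Mb. Pooled summits numbered 50.15 per Mb in the regions and 237.4 per Mb in the rest. The list of replicate 1 alone gave 60.18 per Mb in the regions and 245.9 in the rest. That of replicate 3 alone gave 99.37 and 265.9, so the value for the regions without replicate 1 was more than 1.5 times the pooled one, in the same direction. The difference was present in each kind of sequence: pooled summits occurred at 96.78 per Mb in the regions and 342.6 in the rest in exons, at 61.85 and 226.2 in introns, and at 35.44 and 174.2 in intergenic sequence. Outside the clusters the piRNA regions had 226.7 pooled summits per Mb.

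Base composition moved with these values. The GC content was 29.9% in the piRNA regions of the clusters and 36% in the rest of the clusters. The median region had 28.6% GC in the clusters and 32.82% outside them, against 35.12% for windows over the genome. Pooled summits were rarer in AT-rich sequence everywhere, but cluster regions had the lowest share in each GC bin from 25% upwards. At 30 to 35% GC, 3.41% of cluster piRNA regions held a pooled summit, against 10.1% of piRNA regions outside the clusters, 9.84% of cluster windows without a piRNA region and 11.1% of all windows. At 25 to 30% GC the share was 0.582% in cluster piRNA regions, against 3.46% in the other cluster windows, and at 35 to 40% it was 5.13% against 16.9%. For IDR summits the order did not hold in every bin. At 30 to 35% GC the IDR share was 0.392% in cluster piRNA regions, 0.86% in the other cluster windows and 0.545% in all windows. At 40% GC and over it was 2.58% (4 of 155 regions), 2.27% and 1.78%. How uniquely reads map in these regions was not measured here, and its part in the result was not tested.

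**Figure D5:**
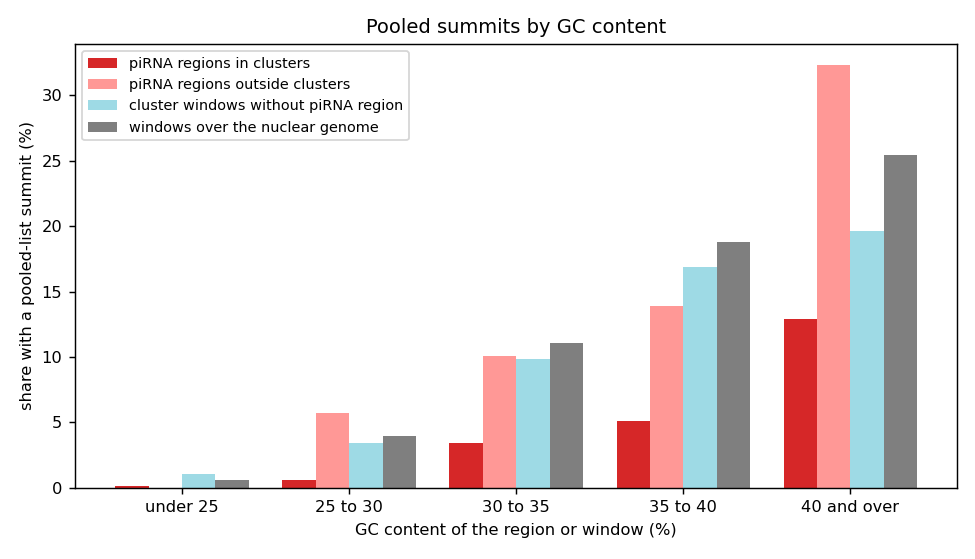
Share of 521 bp regions or windows with a pooled-list summit, by GC content, for piRNA regions in and outside the clusters, cluster windows that hold no piRNA region, and windows over the whole nuclear genome. From 25% GC upwards the bars of cluster piRNA regions are the lowest of the 4, reaching 12.9% at 40% GC and over, against 25.4% for all windows.

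Pooled summits at piRNA genes were of ordinary strength. The 276 pooled summits in piRNA regions had a median signal of 14.83, with 14.95 for the 160 in the clusters, against 15 for pooled summits elsewhere and 16.07 for those in the clusters away from piRNA genes. Of the 276, 241 (87.3%) had no other RNA gene within 250 bp, with a median signal of 13.97. A summit in both replicate lists was present at 80 of the 276 (29%), against 27.8% of the pooled summits elsewhere. Of the 276, 27 (9.78%) were also IDR summits, against 6.1% elsewhere.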

How the data were processed

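RPC-1 ChIP-seq of 2 samples of 1 group was available as peak lists on ce11. Per the file headers, the authors called peaks against a control alignment for each sample and on both pooled, and derived the IDR list from these. Which aligner and caller were used is not given in the sources used here; depth is unknown. Each deposited list gives a signal score per peak (the authors' enrichment value) and a q-value as −log10; the lists hold 1860 (IDR), 30000 (pooled), 29914 (replicate 1) and 30000 (replicate 3) peaks. The lists on ce10 were not used. Replicates are separate biosamples per the labels.

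Summits were matched to RefSeq WBcel235 genes with Python 3.11.15, and 0 peaks lay beyond a chromosome end. Clusters were runs of 100 kb bins with at least 20 piRNA genes, joined over gaps up to 200 kb and at least 500 kb long. The RNA gene at a summit was the one containing it, otherwise the nearest within 250 bp. Windows around the summits, wider than the printed 121 bases, were searched with blastn 2.17.0 (word size 7, E-value up to 0.01). Shares carry 95% Clopper-Pearson intervals (scipy 1.17.1), which cover counting error only. With 1 group there is no contrast to test. The counting was tested on simulated data.

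Named genes were every piRNA gene with an IDR summit, the 10 strongest pooled summits without another RNA gene and the 10 piRNA genes with the strongest pooled summits inside them. The members, classes and lists were chosen with earlier results of these data known, and the splits by context and GC, the A-box, the B-box with 1 mismatch and the blastn search were added after the data were seen. Alternatives changed the distance, the list, the cluster rule, used peak intervals or merged loci, or left out a replicate by using the top 1860 peaks of the other (for the pooled list, its whole list).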

Additional observations from a re-analysis of the deposited data

How the results depend on the processing

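The number of piRNA genes with a summit depended mainly on the distance allowed. For the IDR list it was 35 at 250 bp, 0 inside the gene, 8 at 100 bp and 97 at 500 bp, and in the clusters 28, 0, 8 and 84. For the pooled list it was 363 at 250 bp, 12 inside the gene, 121 at 100 bp and 789 at 500 bp. Peak intervals in place of summits gave 67 and 575. The stronger 930 IDR peaks and 15000 pooled peaks gave 19 and 173 genes, and 9.667 IDR summits per Mb of the clusters, against 16.17 with all. With 1 replicate left out, the counts were 29 to 39 (IDR), 22 to 30 (IDR, clusters) and 410 to 766 (pooled), and the densities 15.67 to 17.67 IDR summits per Mb of the clusters and 60.18 to 99.37 pooled summits per Mb of their piRNA regions. Of the 27 IDR summits, 19 had another RNA gene within 250 bp, 15 around the summit itself, 18 within 100 bp and 19 within 500 bp, and 18 without ncRNA genes of unknown class. In other sets of summits, it was 18 of 24 without replicate 1, 20 of 31 without replicate 3 and 15 among the stronger 930 peaks. The 3 other cluster definitions left the cluster count at 28.

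No paired analysis was possible because there is 1 group. Both replicates come from 1 line with different shearing. Unknown depth means that a missing summit is not shown to be missing binding, and peak lists show neither transcription nor germline content.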
